A study of Mus musculus with 2 samples.

Results

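Interferon-stimulated genes are the genes that cells switch on when interferon binds its receptor. A list of 39 of them was followed by gene symbol through single-cell RNA sequencing of mouse periodontal ligament, the connective tissue that holds a tooth root in its socket. Of these, 38 were among the 32285 genes of the count tables. Mx1 was not analysed here. The rule used gene names and no measured value, but the list was chosen with earlier results of these data known. The list holds antiviral effectors, RNA sensors, transcription factors, GTPases and 2 chemokines.

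Both libraries came from C57BL/6J males aged 8 weeks, with no genetic change named in the labels. For the orthodontic tooth movement (OTM) library, the left first molar of the upper jaw was pulled forward with 10 g for 6 days. The control library came from the right side, which carried no force, so loaded and unloaded tissue had the same age, sex and strain. Tissue left on extracted roots and in the sockets of 5 mice was pooled for each library, digested with collagenase and then trypsin, and run on the 10x Genomics 3' chemistry. There was 1 library for each side, so every difference below is one between 2 pooled libraries. Intervals cover counting error only, no variation between mice could be estimated, and no p-value is given.

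Type I interferons, such as interferon beta, act through the receptor pair Ifnar1 and Ifnar2 and the kinases Jak1 and Tyk2. Their signal ends at a DNA motif bound through Stat2 and Irf9, called the interferon-stimulated response element (ISRE). Interferon gamma acts through another motif, the gamma-activated sequence (GAS), and many GTPases and Cxcl9 answer mainly to it. In bone and periodontal tissue, interferons are known as brakes on osteoclast formation.

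The ISRE was searched on both strands as GAAA, any 2 bases and GAAA, with overlapping matches allowed. The windows ran from 250 bases before to 50 bases after each RefSeq start site in GRCm38.p6. Of the 38 members and Mx1, 32 had a window and 19 of these held a match in any window (59.4%). The share was 3.99% of all 27025 genes with a window and 3.44% of all 32851 windows. Other genes on a list of type I interferon-stimulated genes held it in 21 of 48 cases (43.8%). The members with a window but no ISRE match were Cmpk2, Cxcl9, Ifi35, Ifi44, Ifi47, Ifit2, Irf1, Irf7, Irf9, Isg20, Oasl1, Oasl2 and Xaf1. The GAS was searched as TTC, any 3 bases and GAA, which reads the same on both strands. It was found for 9 of the 32 members with a window (28.1%), for 9.55% of the 27025 genes and in 8.30% of all windows. Among the other type I genes it was found in 3 of 48 cases (6.25%). A match is a string of letters and not a shown binding site.

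The stretches below were chosen from members with a match before the start site that had many UMIs or large differences described here. Each is 100 bases, 5' to 3' on the gene's own strand, from RefSeq GRCm38.p6. Capitals mark the ISRE match, or in Irf1 the GAS match.
Isg15, chr4:156200819-156200918, minus strand: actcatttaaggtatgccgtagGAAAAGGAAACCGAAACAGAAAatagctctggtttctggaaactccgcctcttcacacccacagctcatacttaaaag
Ifit1, chr19:34640770-34640869, plus strand: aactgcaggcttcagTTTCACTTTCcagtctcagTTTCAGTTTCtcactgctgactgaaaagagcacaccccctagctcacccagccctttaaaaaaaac
Ifit3, chr19:34583358-34583457, plus strand: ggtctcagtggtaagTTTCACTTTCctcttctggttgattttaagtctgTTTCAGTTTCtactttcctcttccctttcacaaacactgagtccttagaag
Rsad2, chr12:26456488-26456587, minus strand: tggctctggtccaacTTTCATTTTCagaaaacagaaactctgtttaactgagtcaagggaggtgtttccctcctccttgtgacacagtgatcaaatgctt
Cxcl10, chr5:92349018-92349117, minus strand: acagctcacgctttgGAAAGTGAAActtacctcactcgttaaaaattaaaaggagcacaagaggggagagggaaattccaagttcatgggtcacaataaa
Irgm1, chr11:48871421-48871520, minus strand: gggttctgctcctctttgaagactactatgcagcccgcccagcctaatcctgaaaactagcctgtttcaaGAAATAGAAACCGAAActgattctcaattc
Irf1, chr11:53769909-53770008, plus strand: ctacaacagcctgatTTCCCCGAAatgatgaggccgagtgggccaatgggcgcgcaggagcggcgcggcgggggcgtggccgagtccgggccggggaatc

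Isg15 carried 3 overlapping matches, and Ifit1 and Ifit3 carried 2 separate ones. The stretch of Ifit3b at chr19:34607754-34607853, on the plus strand, was alike to that of Ifit3 in 100 of 100 bases. Several members are neighbours. Ifit2, Ifit3, Ifit3b and Ifit1 lie in this order on chromosome 19, with 7112 bases between Ifit2 and Ifit3. Rsad2 and Cmpk2 lie 12752 bases apart on chromosome 12, and Cxcl9 and Cxcl10 lie 18559 bases apart on chromosome 5. All these positions are in GRCm38, and each of the genes named is annotated as protein coding.

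After filtering, 348 control cells held 5593726 UMIs (unique molecular identifiers, 1 per captured transcript) and 1412 OTM cells held 35518568. The median was 14877 UMIs per control cell and 19583 per OTM cell, and no barcode was shared between the libraries. Cells were clustered without the members and without the interferon pathway genes, and clusters were named from marker lists as macrophage or monocyte-like, neutrophil-like and so on. Levels are given in CPM (counts per 1000000 UMIs of the class). The 3' chemistry counts transcript ends, so CPM are not scaled by gene length. Fewer cells of a state and less RNA per cell cannot be told apart in a class sum. Ifitm3 and Bst2 were kept out of summed levels, because Ifitm3 alone held 4379 of 12112 control and 44169 of 75726 OTM member UMIs.

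Over the whole libraries, the other 36 members summed to 1295 CPM (1265 to 1325) without force and to 805 CPM (795 to 814) after OTM. The OTM level was thus 1.61-fold lower (log2 ratio -0.69, interval -0.72 to -0.65). With Ifitm3 and Bst2 included, all 38 members summed to 2165 and 2132 CPM (log2 ratio -0.02, interval -0.05 to 0.01). At least 2-fold lower in OTM were 10 of 38 members, against 9.52% of the 15781 genes measured, and 2 members were at least 2-fold higher, against 5.68%. The 10 were the RNA sensor gene Ifih1, Isg15, Cxcl10, Oasl1, Isg20, Rsad2, Ifit1, Ifit2, Ifit3 and Ifit3b, and the 2 were Gbp3 and Ifi44. Here, measured means that equal CPM would give at least 5 UMIs on either side. The median log2 ratio of the members was -0.49, and that of all genes was -0.0037.

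Whole-library values mix classes whose members differed in opposite directions. The summed level was 3.76-fold lower in OTM in macrophage or monocyte-like cells and 1.70-fold higher in neutrophil-like cells. In fibroblast-like cells it was 1.37-fold lower, and in osteoblast lineage-like cells the 2 libraries were alike within counting error, at 413 CPM (369 to 462) and 409 CPM (379 to 439). Among control classes with at least 20 cells, the order from high to low was macrophage or monocyte-like, fibroblast-like, neutrophil-like, osteoblast lineage-like and epithelial-like. In the OTM library neutrophil-like cells stood above fibroblast-like cells, and the other places were the same. The intervals of control neutrophil-like and osteoblast lineage-like cells overlapped, and those of the other neighbours in either order did not.

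**Figure D1:**
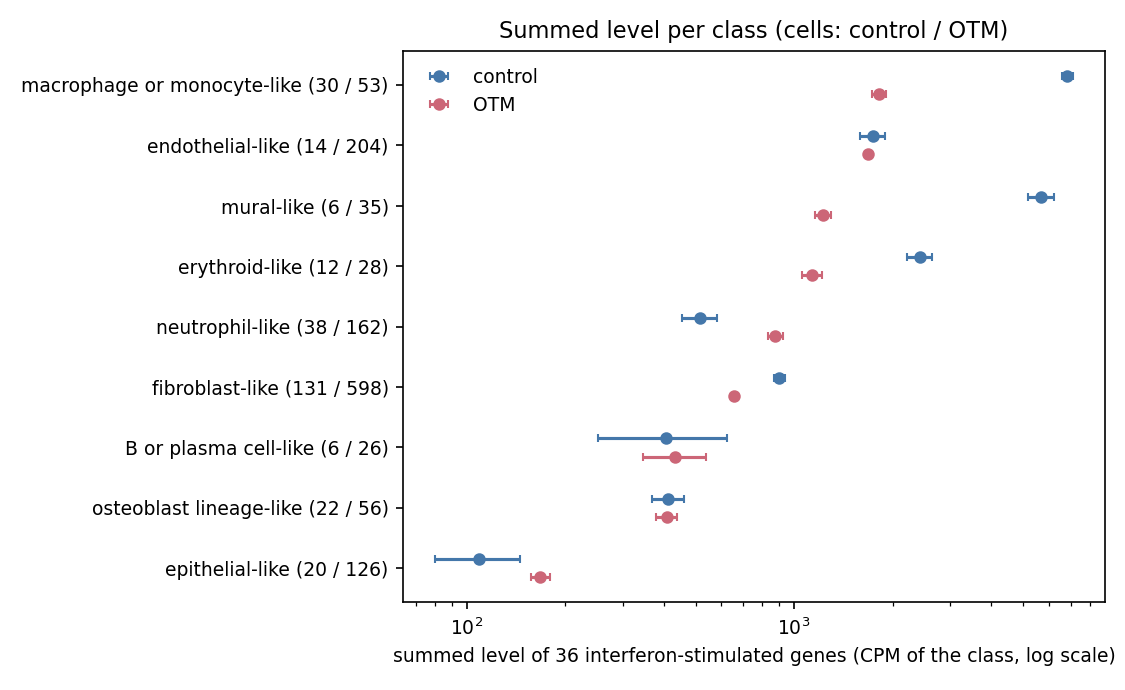
Summed level of the 36 members without Ifitm3 and Bst2 in each class with at least 6 control cells, in CPM on a log axis, blue for control and red for OTM, with exact 95% Poisson intervals of the counts. Macrophage or monocyte-like cells stood at 6839 CPM (control) and 1818 CPM (OTM), and neutrophil-like cells at 515 and 877 CPM.

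Among the 5 classes with at least 20 cells on both sides, macrophage or monocyte-like cells carried the members at the highest level and had the largest ratio between the libraries. In 30 control cells the 36 members summed to 2462 UMIs, or 6839 CPM (6572 to 7115). In 53 OTM cells they summed to 1713 UMIs, or 1818 CPM (1733 to 1906), which is -1.91 in log2 (-2.00 to -1.82). At least 2-fold lower in OTM were 21 of 29 measured members, against 7.91% of 7131 genes in this class, and only Cxcl9 was at least 2-fold higher, against 21.1%. The median log2 ratio of the measured members was -1.51, while that of all genes was 0.27. Each of the 7 role groups had a lower sum in OTM, with log2 ratios from -1.12 for the transcription factors to -2.32 for Isg15 with Usp18.

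Ifit3 and Ifit2, antiviral effectors of the IFIT family, which binds foreign RNA, had the lowest ratios among members with OTM UMIs. Ifit1 had 117 UMIs in control macrophage or monocyte-like cells and 45 in OTM, or 325 and 47.8 CPM (log2 ratio -2.77, interval -3.30 to -2.26). Ifit3 had 61 and 6 UMIs (log2 ratio -4.73, interval -6.24 to -3.53), and Ifit2 had 38 and 8 UMIs (log2 ratio -3.64, interval -4.95 to -2.51). Ifit3b had 23 UMIs and 0, which is at least 20.1-fold lower against a floor of 3 UMIs over the class. All 4 lay on the same side and came from few cells, with Ifit1 detected in 11 of 30 control and 5 of 53 OTM cells.

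Rsad2 encodes viperin, an enzyme that makes a chain terminator for viral RNA synthesis. It had 442 CPM in control macrophage or monocyte-like cells and 87.0 CPM in OTM, with its UMIs in 5 and 6 cells. With doublets removed and cells clustered again, the log2 ratio of Rsad2 was -0.00011. A cluster led by Ccl7 and Ifnb1 was then unnamed and outside the class. Oasl1, an OAS-like protein known to restrain the translation of Irf7, had 628 and 87.0 CPM (log2 ratio -2.85, interval -3.23 to -2.48). Bst2, or tetherin, which holds budding virus at the cell surface, had 481 and 215 CPM (log2 ratio -1.16, interval -1.46 to -0.86). Not every effector stood 2-fold apart. Ifitm3, which blocks virus entry from endosomes, had 764 and 549 CPM, and Oas1a had 33.3 and 37.1 CPM with intervals that overlapped. The end of the Oas1a transcript shares 56.1% of its 50-base words with Oas1g, so the value of Oas1a is uncertain.

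Isg15, a small ubiquitin-like protein that is joined to other proteins, was the second member by UMIs in the control class. It had 348 UMIs in 19 of 30 control cells and 181 UMIs in 26 of 53 OTM cells, or 967 CPM (868 to 1074) and 192 CPM (165 to 222). Ifih1, the sensor MDA5 for long double-stranded RNA, had 218 and 227 UMIs, or 606 and 241 CPM (log2 ratio -1.33, interval -1.60 to -1.05). Irf7, a transcription factor that drives interferon genes, had 125 CPM (91.2 to 167) and 13.8 CPM (7.35 to 23.6). Irf1, a transcription factor induced by both kinds of interferon, had 136 and 66.9 CPM, but with clusters built from all genes its log2 ratio was 0.08. Stat2 and Irf9 were closer to equal, with 22.2 and 29.7 CPM for Stat2 and a log2 ratio of -0.09 for Irf9 (-0.99 to 0.89).

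Cxcl10, the chemokine that attracts Cxcr3-bearing T cells and NK cells, was the most abundant member in this class. It had 799 UMIs in 20 of 30 control cells and 524 UMIs in 29 of 53 OTM cells, or 2219.6 CPM (2068 to 2379) and 556 CPM (509.5 to 606). Cxcl9, a ligand of the same receptor, went the other way by count, with 3 UMIs in 2 control cells and 23 UMIs in 1 OTM cell. Its ratio was 2.93 with a log2 interval of -0.18 to 3.93, and without the barcodes called doublets the log2 ratio was -1.32. Among the GTPases, Irgm1, known for its part in autophagy and defence against bacteria, had 47.2 and 11.7 CPM. Ifi47 had 47.2 and 7.43 CPM. Trim30a, of the TRIM family, had 169 and 54.1 CPM. Zbp1, a sensor of left-handed nucleic acid, had 66.7 and 23.3 CPM, and Oasl2, Rtp4, Ifi35, Gbp7 and Dhx58 made up the rest of the 21. The 9 members without enough UMIs in this class were Gbp3, Gbp2, Ifi44, Oas3, Usp18, Isg20, Igtp, Cmpk2 and Iigp1.

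**Figure D2:**
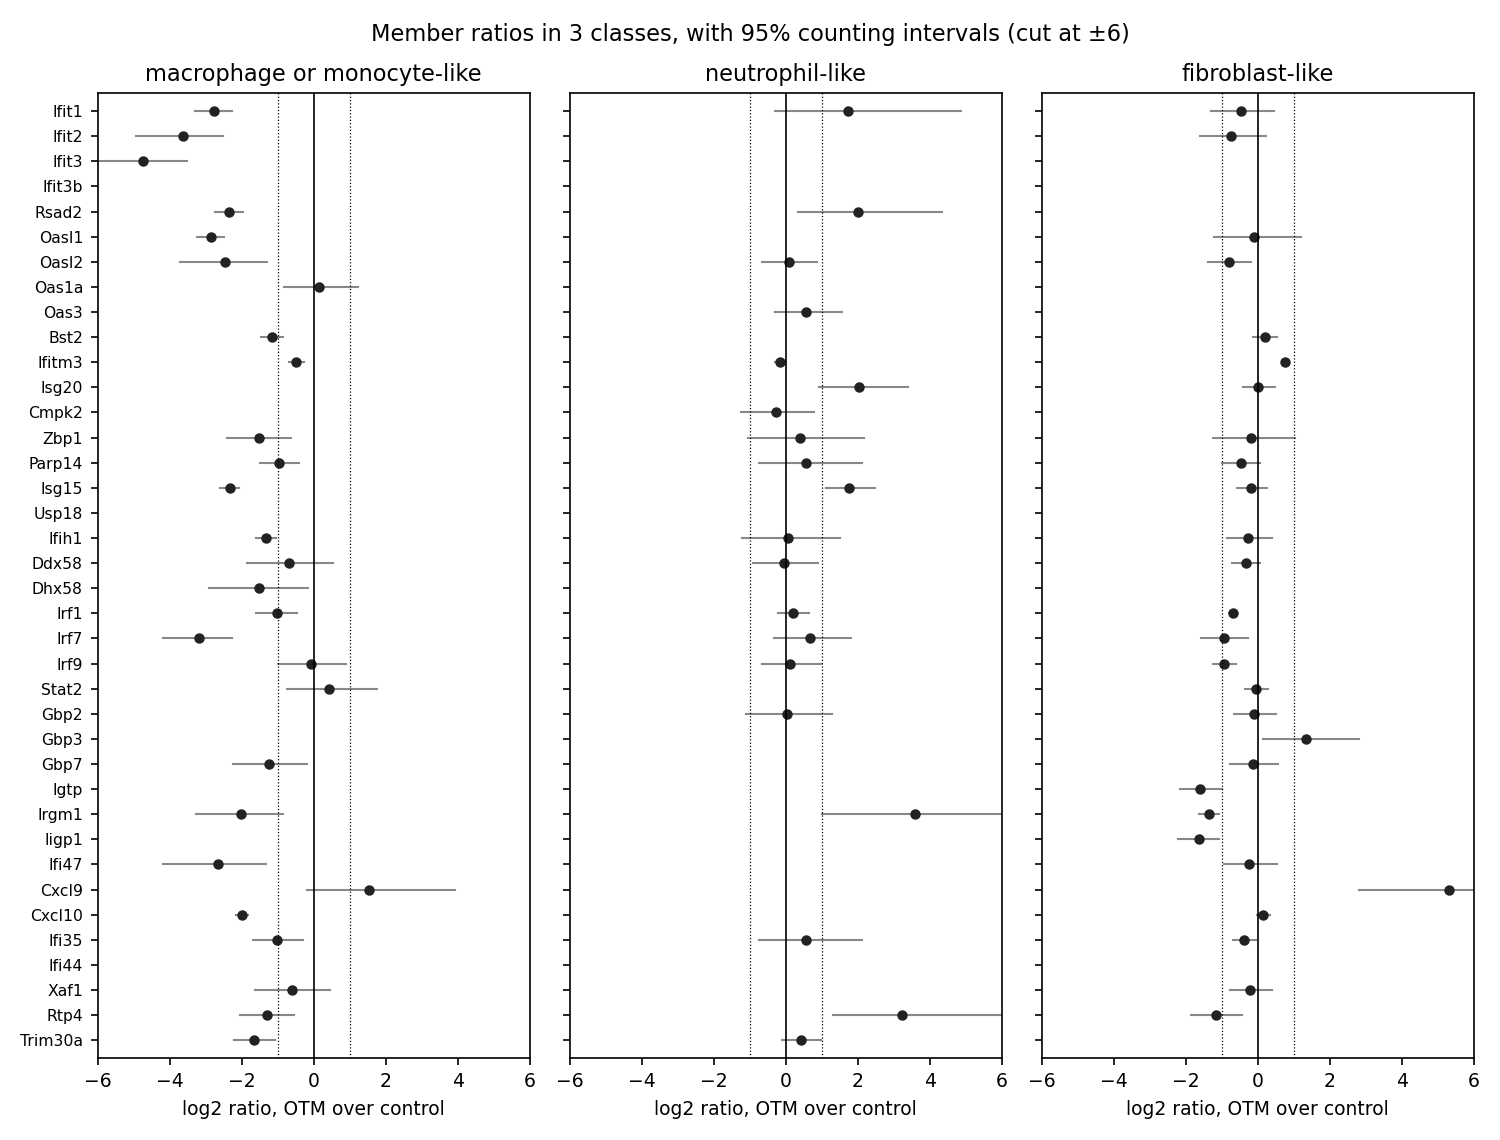
Log2 ratio of OTM over control CPM for each member (vertical axis, grouped by role) in macrophage or monocyte-like, neutrophil-like and fibroblast-like cells, with exact 95% counting intervals and dotted lines at 2-fold. Members not measured in a class, and Ifit3b, which had 0 OTM UMIs in the first class, have no point; in the first panel 26 of 29 measured members lay below 0, and in the second 17 of 20 lay above 0.

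The 2 libraries filled this class from different clusters. Cluster m4, led by the chemokine genes Ccl7, Ccl12 and Ccl4 and by the interferon beta gene Ifnb1, held 13 control cells (of 30) and 10 OTM cells (of 53). Cluster m2, led by the resident macrophage genes Mrc1 and Fcrls, held 15 and 13 cells, and cluster m0, led by Lyz1 and Ctss, held 2 and 30. Within m4 the summed level was 9961 CPM in control and 3492 CPM in OTM (log2 ratio -1.51, interval -1.64 to -1.39). Within m2 it was 3049 and 1612 CPM (log2 ratio -0.92, interval -1.18 to -0.67). In m0 it was 5232 CPM from only 2 control cells and 1299 CPM in OTM (log2 ratio -2.01, interval -2.62 to -1.33). The OTM level was thus lower in all 3 clusters, at a smaller size than over the class in m4 and m2. In m2, 1 control cell held 217 of the 487 member UMIs, and in m0, 1 control cell held all 22. The ratios in m2 and m0 therefore rest in large part on single control cells.

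Members differed in how they behaved inside these clusters. Isg15 had 1550.5 and 491 CPM in m4 and 276 and 73.7 CPM in m2, lower in OTM in both. In control m2, 1 cell held 37 Isg15 UMIs and each other cell held 0 or 1, so the m2 difference rests on that cell. Cxcl10 was also lower in OTM in both clusters, with log2 ratios of -1.46 (-1.68 to -1.23) in m4 and -2.60 (-3.31 to -1.96) in m2. The same control m2 cell held 105 Cxcl10 UMIs and no other control m2 cell held more than 31, so this m2 ratio too rests in large part on it. Oasl1 was lower in m4, at 1102 and 222 CPM, while in m2 its 10 and 6 UMIs had a log2 interval of -1.92 to 1.42. Ifitm3 had 1153 and 1219 CPM in m4 (log2 ratio 0.08, interval -0.18 to 0.35).

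A few cells held much of the class sum. In the control library 1 cell carried 22.2% of it, and the top 4 of 30 cells reached 50% of it. In the OTM library the top 7 of 53 cells did. Without the 5 top cells of each library the log2 ratio was -1.39. With doublets removed and the cells clustered again it was -0.97, and 4 members were at least 2-fold lower, with the cluster led by Ccl7 and Ifnb1 (11 control and 10 OTM cells) then unnamed. In that setting Oasl1, Irf7, Bst2 and Ifitm3 were higher in OTM, at log2 ratios of 0.98, 0.32, 0.47 and 1.10.

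Markers of other cell types moved with this class too. The 10 dendritic cell markers summed to 12762 CPM in control and 3575 CPM in OTM macrophage or monocyte-like cells, with Clec9a at 0 in control and none at 0 in OTM. The 13 fibroblast markers summed to 381 and 2899 CPM, with Fmod, Pdgfra and Tnmd at 0 in control and none at 0 in OTM. Their part in the member ratios was not tested.

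Pathway genes outside the members were read in the same cells. Of 43 measured genes on the list of other type I interferon-stimulated genes, 20 were at least 2-fold lower in OTM and 0 at least 2-fold higher. Over all genes measured in this class the shares were 7.91% and 21.1%. The median of the list was -0.89 on the log2 scale. Ccl12, a monocyte chemokine with the most control UMIs of this list, had 1150.1 and 145 CPM. The nucleic acid sensor family member Ifi204 had 389 and 108 CPM, and Ifi211 had 286 and 72.2 CPM. Of 7 receptor and receptor kinase genes, 0 passed 2-fold: Ifnar2 had 261 and 222 CPM and Ifngr1 had 228 and 199.5 CPM. Of 17 genes linked to interferon gamma, 3 were at least 2-fold lower, Gbp5, Ccl5 and Ciita, the master regulator of class II genes. Of 9 sensor and induction genes, Tlr7 and Irf3 were at least 2-fold lower.

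In neutrophil-like cells the direction was the opposite. The 36 members summed to 270 UMIs in 38 control cells, or 515 CPM (456 to 581), and to 1452 UMIs in 162 OTM cells, or 877 CPM (832 to 923). The log2 ratio was 0.77 (0.58 to 0.96), at median depths of 11893 UMIs per control and 5788 UMIs per OTM cell, and the part of depth was not tested. With Ifitm3 and Bst2 included, the sums were 1718 and 1960.04 CPM (log2 ratio 0.19, interval 0.08 to 0.30). At least 2-fold higher in OTM were 6 of 20 measured members, against 16.5% of 6176 genes in this class, and 0 were at least 2-fold lower, against 2.33%. The median log2 ratio of the measured members was 0.49 and that of all genes was 0.20.

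Isg15 and Isg20 had the most UMIs of these 6. Isg15 had 21 UMIs in 9 of 38 control neutrophil-like cells and 225 UMIs in 43 of 162 OTM cells, or 40.1 and 136 CPM (log2 ratio 1.76, interval 1.11 to 2.48). Isg20, an exonuclease that degrades RNA, had 7 and 91 UMIs, or 13.4 and 54.9 CPM (log2 ratio 2.04, interval 0.94 to 3.39). The rest of the 6 started from very few control UMIs. Rtp4, a chaperone of membrane receptors, had 2 and 59 UMIs, a ratio of 9.33 with a log2 interval of 1.31 to 6.30. Rsad2 had 3 and 38 UMIs, a ratio of 4.01 (0.35 to 4.34 in log2), and Irgm1 had 1 and 38 UMIs, a ratio of 12.0 (1.02 to 8.93 in log2). Ifit1 had 2 and 21 UMIs, and its log2 interval of -0.30 to 4.87 included 0.

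Other abundant members of neutrophil-like cells did not pass 2-fold. Ifitm3 had 1203 CPM (1111 to 1300.3) and 1074 CPM (1024 to 1125), and as a mean over cells its log2 ratio was 0.02. Irf1 had 116 and 134 CPM and Trim30a had 70.6 and 94.2 CPM, both with overlapping intervals. Oasl2 had 38.2 and 40.5 CPM, and Oas3 had 24.8 and 36.8 CPM. Cxcl10 had 2 and 15 UMIs in all, so the chemokine that led in macrophage or monocyte-like cells was scarce here. The other 18 members had too few UMIs in this class.

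The neutrophil-like class was also filled differently. Cluster 6, led by Acod1, Csf3r and Il1b, held 12 control cells (of 38) and 97 OTM cells (of 162). Cluster 9, led by the neutrophil genes Mmp8, Ltf and Ly6g, held 21 and 51. Cluster 17, whose leading genes include the granulocyte progenitor markers Elane, Prtn3 and Ms4a3, held 5 and 14. Leading genes were taken over both libraries together, and in all control neutrophil-like cells the 5 progenitor markers summed to only 59.2 CPM. Inside cluster 6 the summed level was 1949 CPM (1614 to 2335) in control and 1971 CPM (1852 to 2095) in OTM, a log2 ratio of 0.02. Inside cluster 9 it was 424 and 591 CPM (log2 ratio 0.48, interval 0.19 to 0.77). Inside cluster 17 it was lowest, at 107 and 141 CPM (log2 ratio 0.40, interval -0.41 to 1.30). With Ifitm3 and Bst2 included, the log2 ratio was 0.35 in cluster 6, -0.02 in cluster 9 and -0.07 in cluster 17. Without them the 2 libraries were thus alike within counting error in the cluster with the highest level, and that cluster made up more of the OTM class.

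Members inside cluster 6 did not move together. Rtp4 had 1 and 56 UMIs, and Isg15 had 215 and 403 CPM (log2 ratio 0.91, interval 0.10 to 1.84). Irf1 was lower in OTM, at 578 and 285 CPM (log2 ratio -1.02, interval -1.56 to -0.44). Ifitm3 had 611 and 1269 CPM (log2 ratio 1.05, interval 0.58 to 1.57). In cluster 9 Isg15 had 24.8 and 26.8 CPM. Granulocyte progenitor markers, 5 genes, summed to 59.2 CPM with Ctsg at 0 in control neutrophil-like cells and to 3671 CPM with none at 0 in OTM. The 10 endothelial markers summed to 34.4 and 476 CPM, with Cdh5, Egfl7, Emcn, Esam, Flt1, Kdr, Sele and Tie1 at 0 in control and none at 0 in OTM. Their part in the member ratios was not tested.

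Of 28 measured genes on the list of other type I interferon-stimulated genes, 8 were at least 2-fold higher and 1, Ddx60, at least 2-fold lower in OTM neutrophil-like cells. Over all genes measured in this class the shares were 16.5% and 2.33%. The median log2 ratio of the list was 0.30 and that of all genes was 0.20. Ifitm1, a relative of Ifitm3, had 502 and 1193 CPM, and Ly6e had 21 and 94.2 CPM. Slfn5 had 1 and 54 UMIs, a log2 interval of 1.55 to 9.42. The kinase gene Jak2 had 38.2 and 118 CPM (log2 ratio 1.63, interval 0.97 to 2.37), while Ifnlr1, of the interferon lambda receptor, had 42.0 and 19.3 CPM.

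Fibroblast-like cells, the largest class, were split by member. The 36 members summed to 902 CPM (866 to 939) in 131 control cells and 656 CPM (643 to 669) in 598 OTM cells (log2 ratio -0.46, interval -0.52 to -0.39). At least 2-fold lower were 4 of 28 measured members, against 7.5% of 12867 genes, and 2 were at least 2-fold higher, against 5.93%. The median log2 ratio of the measured members was -0.25 and that of all genes was -0.037. With Ifitm3 and Bst2 included, the sum was higher in OTM, at 1712 and 2003 CPM.

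Of the 4 lower members of fibroblast-like cells, 3 were GTPases (Irgm1, Igtp and Iigp1), while the GTPases Gbp2, Gbp7 and Ifi47 stayed within 2-fold and Gbp3 was higher. Of 18 measured genes linked to interferon gamma outside the members, 1 was at least 2-fold lower and 1 at least 2-fold higher, against 7.5% and 5.93% of all genes. Irgm1 had 165 UMIs in 52 of 131 control cells and 374 UMIs in 162 of 598 OTM cells, or 63.2 and 24.6 CPM (log2 ratio -1.36, interval -1.63 to -1.09). Igtp, which acts at pathogen vacuoles, had 15.3 and 5.07 CPM (log2 ratio -1.59, interval -2.16 to -1.01), and Iigp1, a relative, had 16.1 and 5.14 CPM. With each cell placed by its own marker score, the log2 ratio of Iigp1 was -0.033. Rtp4 had 9.57 and 4.28 CPM. Irf1, the member with the most UMIs after Ifitm3, had 387 CPM (363 to 411) and 238 CPM (230.2 to 246), 1.63-fold lower. Irf9 had 43.3 and 22.6 CPM.

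The higher members included a pair of very uneven ones. Gbp3, a guanylate-binding protein, had 6 and 88 UMIs, or 2.30 and 5.79 CPM (log2 ratio 1.34, interval 0.16 to 2.82), and with each cell placed by its own marker score the log2 ratio was 0.27. Cxcl9 had 1 UMI in the control class and 230 UMIs in only 12 of 598 OTM cells, a ratio of 39.6 (2.81 to 10.62 in log2). Ifitm3 had 779 CPM (745 to 813) and 1310.2 CPM (1292 to 1329) (log2 ratio 0.75, interval 0.68 to 0.82), detected in 124 of 131 and 588 of 598 cells. Isg15 and Isg20 were alike within counting error, at 22.6 and 19.95 CPM and at 19.9 and 20.1 CPM. Cxcl10 was so too over the class, at 107 and 118 CPM, but 584 of its OTM UMIs were in 1 cell. Its log2 ratio ran from -0.42 to 0.48 over 9 alternatives, with the reported sign in 7. The 10 members without enough UMIs here were left out of the counts.

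The class value of Cxcl10 hid a difference between fibroblast-like clusters. In cluster 2, led by Pcp4, Lrrtm4 and Mfap4, Cxcl10 had 278 UMIs in 20 of 87 control cells and 173 UMIs in 30 of 98 OTM cells, or 147 and 88.0 CPM. In cluster 0, led by Aspn, Col16a1 and the ligament gene Postn, it had 1 UMI in 32 control cells and 686 UMIs in 60 of 285 OTM cells, a ratio of 61.9 (3.47 to 11.26 in log2). Cluster 15, led by histone and mitosis genes and present in the OTM library only, had 667 Cxcl10 UMIs in 13 of 28 cells, and 584 of these were in 1 cell. Nearly all control Cxcl10 UMIs of the class thus lay in cluster 2, and most OTM ones lay outside it.

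Between clusters 2 and 0 the summed level was split in the same way. In cluster 2 it was 1076 CPM (1030.0 to 1124) in control and 749 CPM (712 to 789) in OTM, a log2 ratio of -0.52. In cluster 0 it was 494 CPM (439 to 554) and 732 CPM (712 to 753), a log2 ratio of 0.57 in the opposite direction. Cluster 2 made up 87 of the 131 fibroblast-like control cells but 98 of the 598 OTM ones. Cluster 8 (12 control and 61 OTM cells) stood at 206 and 277 CPM (log2 ratio 0.43, interval -0.13 to 1.05). In the OTM library only, cluster 4 (126 cells) stood at 401 CPM and cluster 15 (28 cells) at 1474 CPM. Irf1 was lower in OTM in cluster 2, at 453 and 269.6 CPM, and higher in cluster 0, at 235 and 298 CPM. Irgm1 had 80.8 and 41.2 CPM in cluster 2, and in cluster 0 its log2 interval of -0.30 to 1.51 included 0. Ifitm3 was higher in OTM in both, with log2 ratios of 0.50 (0.41 to 0.59) and 0.91 (0.75 to 1.08). The 13 macrophage or monocyte markers in fibroblast-like cells summed to 540.1 CPM in control, with 5 at 0 (Adgre1, Ccr2, Fcrls, Ly6c2 and Ms4a7), and to 268 CPM in OTM, with 3 at 0 (Adgre1, Ccr2 and Fcrls). Their part was not tested.

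Of 33 measured genes on the list of other type I interferon-stimulated genes, 7 were at least 2-fold higher and 1 at least 2-fold lower in OTM fibroblast-like cells. Over all genes measured in this class the shares were 5.93% and 7.5%. Ly6a, the stem cell antigen Sca-1, had 29.9 and 161 CPM, and Ifitm1 had 34.1 and 102 CPM. Ifi211 had 0 UMIs in control and 203 UMIs in 107 of 598 OTM cells, which is at least 11.6-fold higher against a floor of 3 UMIs. Gm4951, the lower one, had 17.6 and 3.75 CPM.

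In osteoblast lineage-like cells (22 control and 56 OTM cells), 3 of 14 measured members were at least 2-fold higher, against 6.18% of 9245 genes, and 1 was at least 2-fold lower, against 3.23%. Cxcl10 had 0 UMIs in control and 35 UMIs in 5 OTM cells, at least 4.95-fold higher against the floor of 3 UMIs. Ddx58, the RNA sensor RIG-I, had 4 and 26 UMIs, and Iigp1 had 18 and 11 UMIs, or 23.9 and 6.20 CPM. Isg15 had 2 and 17 UMIs, a ratio of 3.61 with a log2 interval of -0.22 to 5.01. Irf1, the member with the most UMIs after Ifitm3, was alike in both, at 218 and 219 CPM. The 10 endothelial markers summed to 375 CPM with none at 0 in control osteoblast lineage-like cells, and to 18.6 CPM with Cdh5, Egfl7, Emcn, Kdr and Sele at 0 in OTM. Their part in the Iigp1 ratio was not tested.

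Epithelial-like cells had the lowest levels of all classes compared, at 109 CPM (80.0 to 146) in 20 control cells and 168 CPM (157 to 179) in 126 OTM cells. Only 4 members were measured there, and 2 were at least 2-fold higher in OTM, against 8.09% of 7813 genes, while 0 were at least 2-fold lower, against 8.27%. Irf1 had 4 UMIs in control and 257 UMIs in 74 of 126 OTM cells (log2 ratio 2.29, interval 0.92 to 4.18). Irf7 had 1 and 129 UMIs, a ratio of 9.85 (0.80 to 8.62 in log2). Ifitm3 was the most abundant member, at 841 and 1113 CPM. With each cell placed by its own marker score the summed ratio turned to -0.51, so its direction depended on which cells were counted. The 13 fibroblast markers summed to 674 CPM in control and 3850.4 CPM in OTM epithelial-like cells, with Aspn, Dcn, Mfap5, Pdgfra and Tnmd at 0 in control and Mfap5 at 0 in OTM. Their part was not tested.

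Endothelial-like cells also carried the members at a high level, but only 14 were in the control library against 204 in OTM, so no counts of members are given. The summed level was 1741 CPM (1590.5 to 1901) and 1679 CPM (1646 to 1713). The 5 top cells held 71.3% of the control sum and 20.9% of the OTM sum, and without them the log2 ratio was 0.80. Cxcl10 had 12 UMIs in 2 control cells and 1215 UMIs in 56 OTM cells, or 42.3 and 209 CPM, 4.95-fold higher in OTM. Iigp1, a GTPase of the interferon gamma response, had 381 and 222 CPM, and Irf1 had 546 and 323 CPM, both lower in OTM. Ifitm3 reached 1772 and 2126 CPM, and Bst2 reached 218 and 257 CPM.

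Smaller classes are given as levels only. Mural-like cells had 5694 CPM in 6 control cells, of which 1 cell held 84.1%, and 1227 CPM in 35 OTM cells. Erythroid-like cells carried Isg15, Isg20 and Rsad2, at 813, 732 and 513 CPM in 12 control cells and 399, 367 and 208 CPM in 28 OTM cells, with 0 UMIs of Irf1 in either. Plasmacytoid dendritic-like cells, a type known for interferon output, had Bst2 at 3742 CPM in 2 control and 2771 CPM in 3 OTM cells, with 0 UMIs of Isg15. Osteoclast-like cells were found in the OTM library only, where 24 cells had a summed level of 294 CPM (262 to 329). No osteoclast-like cell had a high member sum as defined next.

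A barcode was called high where the 36 members made up at least 0.5% of its UMIs, a range of a sum and not a cell type. Among control barcodes 13 of 348 were high (3.74%, exact Clopper-Pearson interval 2.00% to 6.30%). Among OTM barcodes 32 of 1412 were (2.27%, 1.56% to 3.18%). These intervals overlap. Between 0.4% and 0.6% lay 5 control and 25 OTM barcodes. With every cell thinned to 1500 UMIs the shares were 5.02% of 299 control cells and 3.36% of 1370 OTM cells, with 49 and 42 shallower cells left out. High barcodes held 39.7% of the control and 18.97% of the OTM UMIs of the 36 members.

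In control, 8 of the 13 were macrophage or monocyte-like, which is 26.7% of the 30 cells of that class (12.3% to 45.9%). In OTM, 6 of the 32 were, which is 11.3% of 53 cells (4.27% to 23.0%). With doublets removed (2 control barcodes) and cells clustered again, 5.26% of control cells of the class were high. In that setting the cluster led by Ccl7 and Ifnb1 was unnamed and outside the class. It held 6 of the control macrophage or monocyte-like cells called high here. The other control ones were 2 endothelial-like, 2 erythroid-like and 1 mural-like barcodes. The OTM ones also included 7 endothelial-like, 6 fibroblast-like, 5 neutrophil-like, 3 mural-like and 3 erythroid-like barcodes. None of the 131 control fibroblast-like cells was high, which allows a share of up to 2.29%, and 1.00% of OTM ones were (0.369% to 2.17%). None of the 38 control neutrophil-like cells was high, which allows up to 7.89%, and 3.09% of OTM ones were (1.01% to 7.06%). Thinned to 1500 UMIs, 0 of 37 control neutrophil-like cells and 10 of 160 OTM ones were high (6.25%, 3.04% to 11.2%), and 35.7% of 28 control and 12.2% of 49 OTM macrophage or monocyte-like cells were. The intervals of the 2 libraries overlapped in each of these classes.

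**Figure D3:**
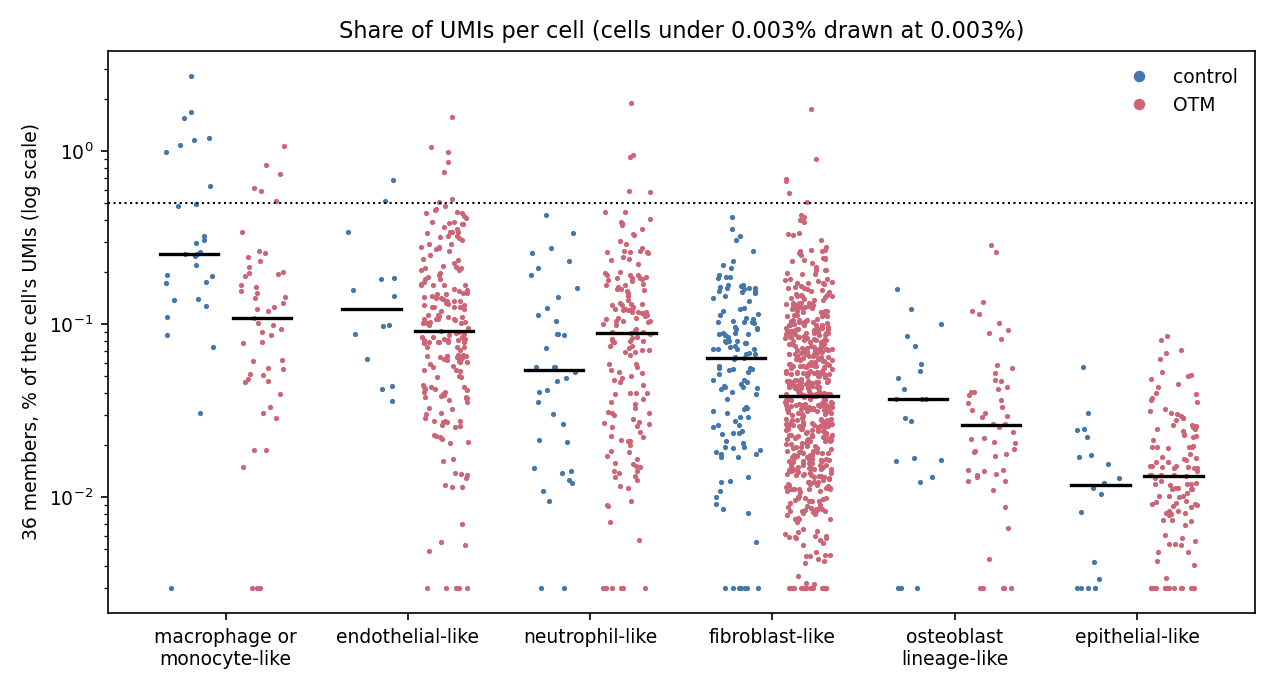
Share of each cell's UMIs that came from the 36 members, on a log axis, by class and library (blue control, red OTM), with black bars at the medians and a dotted line at the 0.5% threshold. The macrophage or monocyte-like medians were 0.255% (control) and 0.109% (OTM), and the neutrophil-like medians were 0.0547% and 0.0888%.

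Cxcl10 led in 6 of the 8 control macrophage or monocyte-like barcodes and in all 6 OTM fibroblast-like ones. The barcode with the highest share in control, at 2.72%, was macrophage or monocyte-like, with 546 member UMIs of 20109 and 31 members detected. Isg15 led in both control erythroid-like barcodes and in 4 of the 5 OTM neutrophil-like ones. Among the 7 OTM endothelial-like ones, Cxcl10 led in 4, Irf1 in 2 and Iigp1 in 1. The single OTM barcode with the most member UMIs was fibroblast-like, in cluster 15, with 985 member UMIs of 56007, of which 584 were Cxcl10. One OTM erythroid-like barcode was high on 9 Rsad2 UMIs alone.

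Genes that the rule for high barcodes did not use were then compared between high and other barcodes of the same class and library. The expected UMIs are those the other barcodes of the class would give at the same depth. Classes held several clusters, and 6 of the 8 control macrophage or monocyte-like high barcodes were in m4. The OTM neutrophil-like ones were all in cluster 6. Ccl4, Ccl5 and Ifnb1 are among the genes leading m4. The part of cluster make-up in these ratios was not tested. Of 30 genes on the list of other type I interferon-stimulated genes with at least 5 expected UMIs in control, 16 reached 2-fold (53.3%), against 6.14% of 5927 genes outside the members. In OTM 22 of 44 did (50%), against 2.75% of 9850 genes. Of genes linked to interferon gamma, 2 of 14 did in control and 7 of 17 in OTM. Receptor, sensor and regulator genes reached 2-fold in 1 of 7, 1 of 8 and 1 of 6 cases in control and in 1 of 8, 0 of 9 and 0 of 8 in OTM.

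Single genes differed in size. Ifi211 had 88 UMIs in control high barcodes where 13.8 were expected, and 51 in OTM where 15.02 were expected. The chemokine gene Ccl5 had 262 against 31.6 and 387 against 12.3. Jak1, the receptor kinase, had 63 against 88.7 and 256 against 191. Not every list gene was shared by the libraries. Ms4a4c had 27 UMIs against 8.23 expected in control and 2 against 11.1 in OTM.

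**Figure D4:**
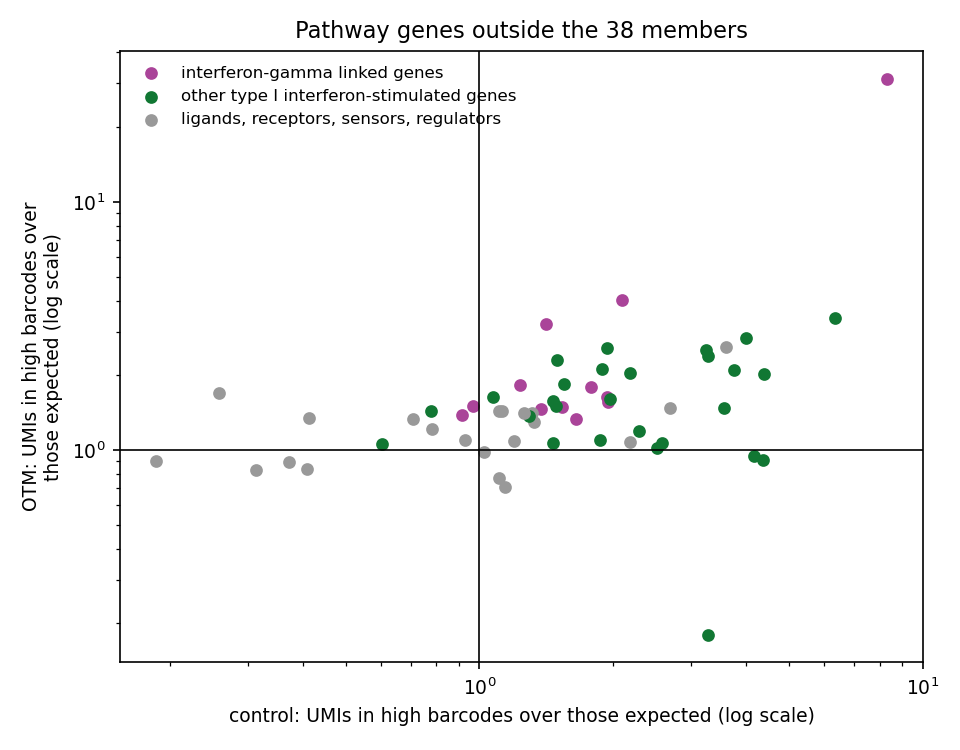
For 60 pathway genes outside the members with at least 5 expected UMIs in both libraries, the UMIs found in high barcodes divided by those expected, control on the horizontal and OTM on the vertical log axis. Above 1 in both libraries were 41 genes and below 1 in both were 4; green marks other type I interferon-stimulated genes, purple those linked to interferon gamma, grey the rest.

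Of the genes with at least 20 UMIs in OTM high barcodes, the 10 with the largest ratio there, with expected counts under 3 set to 3, were Ifnb1, Ccl5, Adam2, Gbp5, Stfa1, 4930500H12Rik, Esm1, Gm16685, Ccl4 and Traip. Ccl4, a chemokine for monocytes and T cells, had 2440 UMIs against 244 expected in OTM and 3424 against 374 in control. Gbp5, a guanylate-binding protein, had 58 against 4.63 and 15 against 2.18. Esm1, an endothelial gene, had 125 against 11.2 in OTM and 10 against 24.7 in control. Adam2, Stfa1, 4930500H12Rik and Traip had 1, 0, 0 and 2 UMIs in control high barcodes. The 10 were chosen on OTM counts alone.

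Ifnb1, which encodes interferon beta, had UMIs in macrophage or monocyte-like cells and in no other class. In control it had 45 UMIs in 7 of 30 cells of that class (23.3%, 9.93% to 42.3%), at a median depth of 12333 UMIs. In OTM it had 127 UMIs in 4 of 53 cells (7.55%, 2.09% to 18.2%), at a median depth of 16565 UMIs, and 116 of the 127 were in 1 cell. Fibroblast-like cells had 0 UMIs in 131 control and 598 OTM cells at median depths of 18491 and 22252, which allows shares of cells with a UMI of up to 2.29% and 0.502% and sets no limit on cells that express the gene. As a class level Ifnb1 was alike, at 125 and 135 CPM (log2 ratio 0.11, interval -0.39 to 0.63), with the OTM value resting on that 1 cell.

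Ifnb1 and a high member sum were found in the same cells. Of the 7 control cells with Ifnb1, 6 were high and 6 were in cluster m4, and their median member share was 1.201%, against 0.192% in the 23 macrophage or monocyte-like cells without it. Of the 4 OTM cells with Ifnb1, 2 were high and 2 were in m4, and their median member share was 0.401%, against 0.102% in the other 49. The cells with Ifnb1 were also deeper, with medians of 17792 and 11713 UMIs in control and 30873 and 15785 in OTM, and the part of depth was not tested. High sums occurred without it as well: 2 control and 4 OTM macrophage or monocyte-like cells were high with 0 Ifnb1 UMIs.

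**Figure D5:**
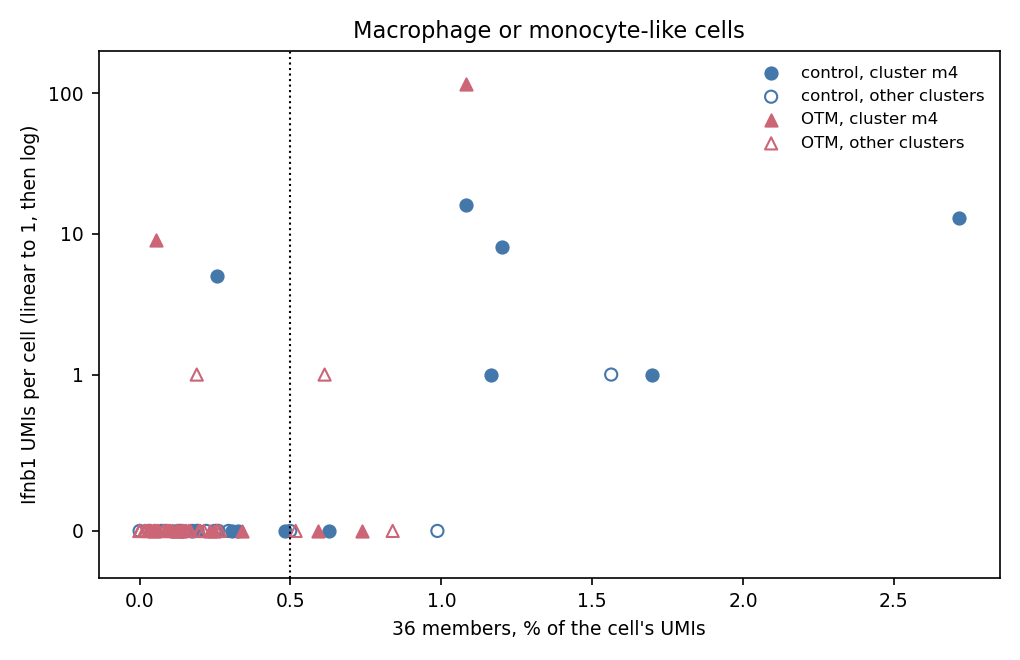
Ifnb1 UMIs (vertical, linear to 1 and logarithmic above) against the share of UMIs from the 36 members (horizontal, %) in 30 control (blue circles) and 53 OTM (red triangles) macrophage or monocyte-like cells, with filled symbols for cluster m4 and a dotted line at 0.5%. Of the 11 cells with Ifnb1, 8 lie to the right of the line, 6 control and 2 OTM; the highest, with 116 UMIs, is an OTM cell.

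Interferon gamma had far fewer counts. Ifng had 4 UMIs in 1 of 4 control T or NK-like cells and 10 UMIs in 3 of 14 OTM ones, plus 1 UMI in 1 OTM fibroblast-like cell. No high barcode carried an Ifng UMI in either library.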

How the data were processed

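Each deposited matrix held whole UMI counts by gene and barcode with no normalization, and its header names Cell Ranger 7.0.1. Also named, in the submitters' processing notes, are Seurat and the builds mm10 and GRCm38; any cell filter they used is not given in the sources used here. Members and gene lists were chosen with earlier results of these data known.

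Barcodes with at least 200 genes and at most 20% mitochondrial UMIs were kept, which removed 21 of 369 control and 127 of 1539 OTM barcodes. Cells were clustered in scanpy 1.11.5 (2000 variable genes, 30 components, 15 neighbours, Leiden resolution 1, seed 0), with 166 member and pathway genes left out. Myeloid and lymphoid clusters were clustered again (resolution 0.8), and clusters were named from 19 marker lists. Doublets called by Scrublet (2 control and 8 OTM) stayed in, except where said. UMIs were summed per library and class and divided by the class total (CPM), with exact Poisson intervals. Ratios have exact conditional binomial intervals and shares have Clopper-Pearson intervals, all at 95%. For a share of 0, the share said to be allowed is instead 3 over the number of cells. It is lower than the Clopper-Pearson limit, such as 2.29% against 2.78% for 131 cells. For medians over a list, a sum below 3 UMIs was replaced by 3. Scripts were tested on simulated data. Genes named are the most abundant members of a class and those at least 2-fold apart with at least 20 UMIs in the higher library. Members named with fewer UMIs, such as Irgm1 and Ifi47 in macrophage or monocyte-like cells and Isg15 and Iigp1 in osteoblast lineage-like cells, and in part pathway genes and cluster values, were picked after they were seen. Libraries held medians of 14877 and 19583 UMIs per cell, and the 348 control cells limit most comparisons. Alternatives covered filters, doublets, clustering, class rule, scaling, top cells, the count minimum and the threshold for high barcodes. Values of 1 pathway gene are not reported here.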

Additional observations from a re-analysis of the deposited data

Results flagged for a closer look

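The summed level of the 36 members stood in opposite directions in classes of the same 2 libraries. As log2 ratios of OTM over control it was 0.77 in neutrophil-like and 0.62 in epithelial-like cells, and -1.91 in macrophage or monocyte-like and -0.46 in fibroblast-like cells. Within fibroblast-like cells it was 0.57 in cluster 0 and -0.52 in cluster 2. With 1 library per side, the difference between these ratios was not tested.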

How the results depend on the processing

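All values are log2 ratios of OTM over control unless said otherwise, and causes were not tested. Of the class sums, member counts and shares of high barcodes recomputed under alternatives, 196 stayed near the reported value and 64 moved. A further 2, from ratios whose reported interval left out 0, changed sign. Sign changes of other ratios are counted among those that stayed or moved. Without a barcode filter the macrophage or monocyte-like sum was -1.13, with 0 members higher, and Ifitm3 in osteoblast lineage-like cells was 0.016. With a stricter filter (500 genes, 10% mitochondrial UMIs) that sum was -1.28, with 2 higher. The fibroblast-like sum was then -0.52, the osteoblast lineage-like sum 0.23 with 0 members lower, and Ifitm3 there 0.56. With doublets removed and cells clustered again, the macrophage or monocyte-like sum was -0.97, with 2 members higher and 4 lower, from 19 control and 37 OTM cells. The cluster led by Ccl7 and Ifnb1 (11 control and 10 OTM cells) was then unnamed and outside the class. Oasl1, Irf7, Bst2 and Ifitm3 were then 0.98, 0.32, 0.47 and 1.10, 5.26% of control cells of the class were high, and the fibroblast-like sum was -0.37. Clusters from all genes gave -1.17 for macrophage or monocyte-like cells with 2 higher, and there Ifitm3 was 0.17 and Irf1 0.085. Placing each cell by its own score gave -0.28 for fibroblast-like cells with 2 members lower, and 0 lower in osteoblast lineage-like cells, where Ifitm3 was 0.86. It gave -0.51 for epithelial-like cells with 1 higher and 1 lower, and -0.32 for Irf1 there.

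Mean levels over cells gave -0.38 for the whole libraries, 0.56 for neutrophil-like cells (Ifitm3 0.021), -1.53 for macrophage or monocyte-like cells with 0 higher, -0.29 for fibroblast-like and -0.31 for endothelial-like cells, and 0 lower in osteoblast lineage-like cells. Centring on the median of all genes gave 0.57 and -2.18 for neutrophil-like and macrophage or monocyte-like cells. Without the top cell of each library the whole sum was -0.63, the osteoblast lineage-like sum -0.24 with 1 member higher, and the endothelial-like sum 0.15. A minimum of 3 expected UMIs gave 3 members lower in osteoblast lineage-like and 1 in epithelial-like cells. A minimum of 10 tested fewer members and gave 3 higher in neutrophil-like, 0 in macrophage or monocyte-like, 1 in epithelial-like and 1 in osteoblast lineage-like cells, where 0 were lower.

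A threshold of 0.25% called 10.3% of control and 8.14% of OTM barcodes high. By class it called 53.3% of control macrophage or monocyte-like cells, 3.82% and 3.51% of fibroblast-like cells and 10.5% and 14.2% of neutrophil-like cells. A threshold of 1% called 0.496% of OTM barcodes, 1.89% of macrophage or monocyte-like, 0.167% of fibroblast-like and 0.617% of neutrophil-like OTM cells. With Ifitm3 and Bst2 in the sum, 7.08% of OTM barcodes, 2.34% of OTM fibroblast-like and 8.02% of OTM neutrophil-like cells were high, and thinning gave 3.36% of OTM barcodes.

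Alternatives chosen after seeing the data were these. Doublets removed with classes kept left 0 members higher in macrophage or monocyte-like cells. Without the 5 top cells of each library the whole sum was -0.42, the macrophage or monocyte-like sum -1.39 and the endothelial-like sum 0.80, for which these cells held 71.3% of the control sum and 20.9% of the OTM sum. Single clusters gave 0.016 and 0.48 for neutrophil-like clusters 6 and 9, 0.57 for fibroblast-like cluster 0, and -0.92 and -1.51 for m2 and m4. Pooling all myeloid subclusters m0 to m6 gave -2.41, with 0 higher. No paired analysis was possible because each group was 1 library, which leaves no spread to estimate with a block. The number of cells limits the small control classes.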
